A study of Mus musculus with 6 samples.

Results

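Basement membrane genes were examined in V6.5 mouse embryonic stem cells and in V6.5 cells labelled as knocked out for E-cadherin. The 10 genes are those of the laminin chains Lama1, Lama5, Lamb1 and Lamc1, the collagen IV chains Col4a1 and Col4a2, the nidogens Nid1 and Nid2, perlecan (Hspg2) and the collagen chaperone Serpinh1, out of 55401 genes in the table. They were chosen by symbol, by function and with their higher counts in the knockout already known, so their differences between genotypes are given as descriptions, without a test. The groups were unmodified V6.5 cells (WT) and V6.5 cells with the genotype Cdh1-/- (Cdh1 knockout), with 3 libraries of total RNA each, named A, B and C. V6.5 is a line from hybrid mouse embryos, and Cdh1 encodes the adhesion protein E-cadherin. The sources used here do not say whether the knockout was 1 clone, nor whether the libraries of a genotype came from separate cultures, so every p-value below measures the spread between these samples, which may be technical.

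A basement membrane is a thin sheet of matrix on which epithelial cells rest. Laminins are trimers of an alpha, a beta and a gamma chain that form a first network on the cell surface, collagen IV forms a second, crosslinked network, and nidogens and the proteoglycan perlecan connect them. Embryonic stem cells secrete these proteins, and the early embryo lays down large amounts of them in the basement membranes beside the extraembryonic endoderm. Collagen IV chains need chaperones and hydroxylases in the endoplasmic reticulum before they leave the cell.

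Col4a1 and Col4a2 are transcribed in opposite directions from one start region on chromosome 8. In the deposited gene models Col4a1 covers chr8:11198423-11312826 on the minus strand and Col4a2 covers chr8:11312805-11449287 on the plus strand, so their first exons overlap by 22 bases. This stretch is shown first because both genes start within it and both had the largest differences among the 10 genes. It comes from the RefSeq start windows of GRCm38.p6, chr8:11312805-11312826, plus strand. Capitals mark a GC box (GGGCGG).
Col4a1 and Col4a2 start overlap: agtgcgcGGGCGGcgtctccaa

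RefSeq start windows, from 250 bases before to 50 bases after a gene's start, were on hand for 7 of the 10 genes. All 7 windows held the GC box GGGCGG on either strand, from 1 match in Col4a1, Nid1 and Serpinh1 to 5 in Hspg2, against 35.7% of 32851 windows. The windows of Col4a1 and Col4a2 share bases and are not separate. The GC box of their start overlap lies in both and is the only match of Col4a1. CCAAT on either strand was found in Col4a1, Col4a2, Lamb1 and Nid1, against 37.4% of all windows. None of the 7 windows held AGATAA (11.2% of all windows), ACAAAG (18.7%) or TATAAA (13.6%), letters bound by GATA, TCF/LEF and TATA-binding factors. The bases upstream of the first exon are given for Lamb1 (chr12:31265043-31265233), Hspg2 (chr4:137468553-137468768) and Nid1 (chr13:13437352-13437550), on the plus strand of GRCm38.p6, as examples of these windows. Capitals mark GGGCGG and CCAAT or their reverse complements.
Lamb1: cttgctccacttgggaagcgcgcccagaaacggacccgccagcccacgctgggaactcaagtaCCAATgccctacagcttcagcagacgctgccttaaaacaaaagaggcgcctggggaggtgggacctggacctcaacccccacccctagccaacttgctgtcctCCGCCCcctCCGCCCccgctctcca
Hspg2: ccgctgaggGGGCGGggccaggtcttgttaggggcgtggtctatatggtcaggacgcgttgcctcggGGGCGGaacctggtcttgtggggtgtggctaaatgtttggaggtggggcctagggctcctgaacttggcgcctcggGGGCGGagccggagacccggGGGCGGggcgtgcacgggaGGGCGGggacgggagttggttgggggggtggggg
Nid1: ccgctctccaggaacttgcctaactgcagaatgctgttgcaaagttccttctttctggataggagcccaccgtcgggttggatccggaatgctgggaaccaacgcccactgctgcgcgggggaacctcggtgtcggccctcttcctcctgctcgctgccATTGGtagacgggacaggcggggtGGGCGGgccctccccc
A match is a description of these letters and not of a bound site.

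Library totals ran from 18020719 to 23381942 counts. Cdh1 itself lay between 537 and 571 CPM (TMM-scaled counts relative to library size) in WT and between 166 and 183 CPM in the knockout, whose mean was 0.309 of the WT mean. A part of the transcript is thus still counted in the knockout, and these data do not measure the protein. The 7 listed markers of embryonic stem cells summed to 3063 to 3326 CPM over the WT libraries and 3266 to 3777 CPM over the knockout libraries. Only Fgf4 of these was called (log2 fold change 0.29, adjusted p 0.0352 in edgeR), and not without WT A, WT B, knockout B or knockout C (0.0982 to 0.155), and Dppa5a, the most abundant per length, had 0.24 (0.0591). Chromosome 1 as a whole stood lower in the knockout, by a median log2 fold change of -0.33 over 1002 tested genes, and chromosome 14 stood higher, by 0.53 over 622 tested genes. This touches Lamc1 on chromosome 1 and Nid2 on chromosome 14. Every other autosome and the X chromosome had a median between -0.04 and 0.03. Within 1 Mb of the other 8 genes, the tested neighbours had medians between -0.12 for Nid1 (16 neighbours) and 0.34 for Lama1 (only 2 neighbours). The Y chromosome genes Ddx3y, Eif2s3y and Uty averaged 14.2, 25.1 and 8.87 CPM in WT. In the knockout they averaged 0.0737, 0.691 and 0.0996 CPM. What this difference means for the contrast of genotypes was not tested. WT A and knockout A shared counts that the other libraries nearly lacked, such as 70 and 25 counts of the liver and visceral endoderm gene Ttr against 0 to 2. Without these 2 libraries, a setting chosen after the data were seen, 9 of the 10 basement membrane genes were called, given as a description only.

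All 10 genes were counted well above the detection limit in every library, passed the filter on low counts and had higher mean levels in the knockout. In edgeR's quasi-likelihood test over 17325 genes, 8 of the 10 passed an adjusted p of 0.05 with a higher level in the knockout, where 7.60% of all tested genes were called higher. None was called lower (0 at an unadjusted p under 0.05, and 0 in DESeq2 or limma-voom), where 5.71% of all tested genes were called lower. The 3 knockout libraries lay above the 3 WT libraries in the same 8 genes, an order that 15.7% of all tested genes showed. The choice of the genes used this contrast, so nothing is read from these counts. Their median log2 fold change was 0.86, beside -0.01 for all tested genes, and the values ran from 0.33 for Serpinh1 to 1.85 for Col4a2.

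**Figure D1:**
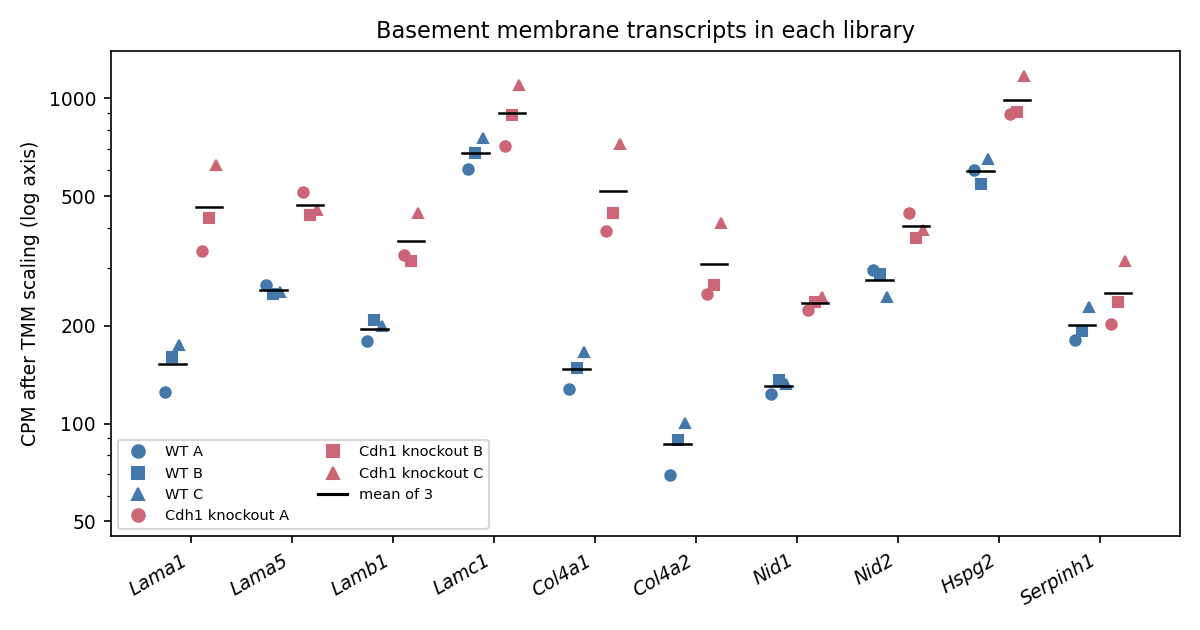
Level of each gene in CPM after TMM scaling (log axis) in 3 WT and 3 Cdh1 knockout libraries. Points are libraries, marked by letter, and bars are means of 3. The genotypes overlap only in Lamc1 and Serpinh1, and Col4a1 and Col4a2 show the widest gaps.

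Collagen IV showed the largest differences. Col4a1 and Col4a2 encode the chains of the most widespread collagen IV trimer, which has 1 Col4a2 chain for each pair of Col4a1 chains. Col4a1 (ENSMUSG00000031502.11) was at 128, 148 and 166 CPM in WT libraries A, B and C and at 391, 444 and 724 CPM in knockout libraries A, B and C. The knockout mean was 3.53 times the WT mean (519.6 ± 179 against 147 ± 19.1 CPM, SD, n = 3 each), with a log2 fold change of 1.82 and a standard error of 0.18. Col4a2 (ENSMUSG00000031503.13) was at 69.7, 89.0 and 100.2 CPM in WT and at 251, 267 and 413 CPM in the knockout. Its knockout mean was 3.60 times the WT mean (310.4 ± 89.4 against 86.3 ± 15.4 CPM, SD, n = 3 each), with a log2 fold change of 1.85 (standard error 0.17). In both genes the lowest knockout library stood well above the highest WT library, and knockout C stood apart from knockout A and B. Without knockout C the log2 fold changes were 1.51 for Col4a1 and 1.59 for Col4a2.

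Per length, the 2 collagen genes kept nearly the same proportion in every library. The ratio of Col4a1 to Col4a2 in RPKM (CPM per kilobase of exon) was 1.79, 1.62 and 1.61 in WT and 1.52, 1.62 and 1.71 in the knockout, and the genotypes overlapped. Among the 11370 tested genes whose mean count reached 100, Col4a2 had the profile most like that of Col4a1 over the 6 libraries. The root mean square difference of their centred log2 CPM was 0.073. Lama1 followed at 0.124 and Bmp4, a growth factor gene on chromosome 14, next at 0.143. The other genes of the group ranked between 157 (Lamb1) and 1189 (Serpinh1). This is a description over 6 libraries that share the difference between genotypes.

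Among the laminin alpha chains, the difference was wider in Lama1 than in Lama5. Lama1 encodes the alpha chain typical of early embryonic basement membranes, and Lama5 the alpha chain found in most epithelia. Lama1 (ENSMUSG00000032796.8, chr17:67697259-67822647) was at 125, 159.8 and 174 CPM in WT and at 339, 429.5 and 622 CPM in the knockout. All knockout libraries exceeded all WT libraries, and knockout C had 1.83 times the level of knockout A. The knockout mean was 3.04 times the WT mean (log2 fold change 1.60, standard error 0.18). Lama5 (ENSMUSG00000015647.9, chr2:180176373-180225859) was at 267, 249.9 and 253 CPM in WT and at 516, 437 and 455 CPM in the knockout. Its knockout libraries were close together, with a coefficient of variation of 8.79% against 31.1% for Lama1, and knockout A was the highest. The knockout mean of Lama5 was 1.83 times the WT mean (log2 fold change 0.87, standard error 0.09).

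The share of Lama1 in the summed Lama1 and Lama5 level per length was 35.9%, 43.3% and 45.1% in WT and 44.0%, 54.0% and 62.0% in the knockout. Knockout A lay inside the WT range, so the share overlapped between genotypes. Within each letter, the share was higher in the knockout library than in the WT library. The summed level of both alpha chains did not overlap, at 36.5 to 40.4 RPKM in WT and 80.9 to 105 RPKM in the knockout.

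The beta and gamma chains differed less than Lama1. Lamb1 encodes the beta chain and Lamc1 the gamma chain that most laminin trimers contain, and the gamma chain carries the binding site for nidogens. Lamb1 (ENSMUSG00000002900.17, chr12:31265234-31329644) was at 180.0, 208 and 199 CPM in WT and at 329, 315 and 445 CPM in the knockout. The genotypes were separate, and the knockout mean was 1.86 times the WT mean (log2 fold change 0.89, standard error 0.12). Lamc1 (ENSMUSG00000026478.14, chr1:153218922-153332786) was at 607, 680.4 and 755 CPM in WT and at 714, 889 and 1099.8 CPM in the knockout. Knockout A lay between WT B and WT C, and Lamc1 did not pass the threshold (log2 fold change 0.40, standard error 0.13). That value was 0.24 without knockout C, 0.33 without WT A and 0.55 without knockout A, and Lamc1 passed the threshold only in the last of the 6 fits that each left out a library. With the median shift of chromosomes 1 and 14 removed from each library, the log2 fold change of Lamc1 was 0.72, and it passed the threshold. Lamc1 also passed it with the replicate letter as a block in the fit. Within each letter, Lamc1 was higher in the knockout library than in the WT library.

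The proportions between laminin chains were compared per length. In WT, Lamc1 was the most abundant of the 10 transcripts per length, at 2.18, 2.30 and 2.45 times the summed Lama1 and Lama5 level. In the knockout this ratio was 1.16, 1.40 and 1.37, below every WT library. The ratio of Lamc1 to Lamb1 was 2.58, 2.51 and 2.91 in WT and 1.66, 2.16 and 1.89 in the knockout. The ratio of Lamb1 to both alpha chains was 0.844, 0.919 and 0.843 in WT and 0.696, 0.645 and 0.724 in the knockout. With the chromosome medians removed, the ratio of Lamc1 to Lamb1 overlapped between genotypes, at 2.59, 2.53 and 2.89 in WT and 2.08, 2.72 and 2.31 in the knockout. The ratio of Lamc1 to both alpha chains then stayed lower in the knockout (1.45, 1.76 and 1.67) than in WT (2.18, 2.32 and 2.43). These ratios follow from the same contrast and carry no test.

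**Figure D2:**
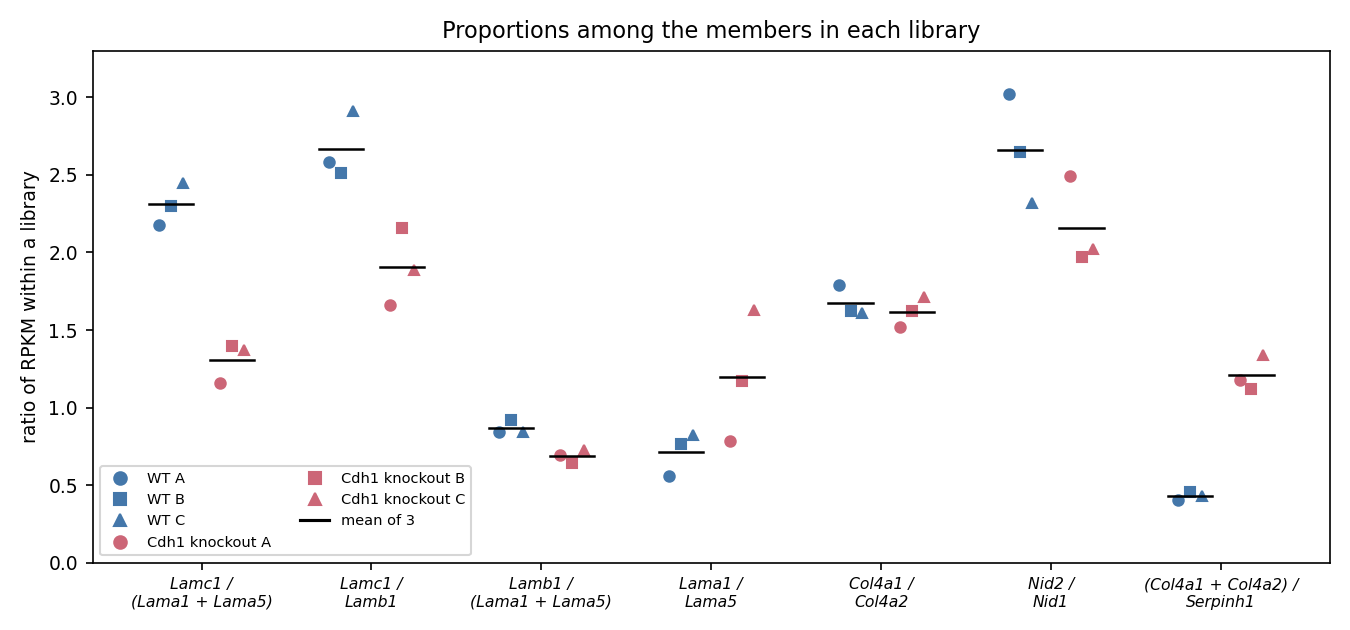
Ratios of RPKM between genes within each library, for 3 WT and 3 Cdh1 knockout libraries, with the mean of 3 as a bar. The ratio of Lamc1 to the alpha chains is 2.18 to 2.45 in WT and 1.16 to 1.40 in the knockout, and the ratio of Col4a1 to Col4a2 overlaps between genotypes.

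The nidogens Nid1 and Nid2 link the laminin and collagen IV networks. Nid1 (ENSMUSG00000005397.8, chr13:13437551-13512269) was at 123, 136 and 132 CPM in WT and at 223, 236 and 245 CPM in the knockout. It was the most even of the 10 genes within the knockout, with a coefficient of variation of 4.74%, and its groups were far apart. The knockout mean was 1.80 times the WT mean (log2 fold change 0.85, standard error 0.08). Nid2 (ENSMUSG00000021806.4, chr14:19751265-19811787) was at 296, 288 and 245 CPM in WT and at 444, 372 and 395 CPM in the knockout. The groups did not overlap (log2 fold change 0.55, standard error 0.10). The median over chromosome 14 was 0.53. With the chromosome medians removed, the log2 fold change of Nid2 was 0.00 and it was not called. Exons of Rtraf on the opposite strand cover 8.96% of the exon bases of Nid2, and how strand was handled in counting is not given in the sources used here.

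Hspg2 encodes perlecan, a large heparan sulfate proteoglycan. Hspg2 (ENSMUSG00000028763.18, chr4:137468769-137570630) was at 602, 546 and 649 CPM in WT and at 894, 908 and 1169 CPM in the knockout. The genotypes were separate, and the knockout mean was 1.65 times the WT mean (log2 fold change 0.73, standard error 0.11). Serpinh1 encodes HSP47, the chaperone of collagen triple helices in the endoplasmic reticulum. Serpinh1 (ENSMUSG00000070436.12, chr7:99345376-99353239) was at 181, 193 and 229 CPM in WT and at 203, 237 and 317 CPM in the knockout. Knockout A lay within the WT range, and Serpinh1 did not pass the threshold (log2 fold change 0.33, standard error 0.14). The value was 0.14 without knockout C and 0.46 without knockout A, and it passed the threshold in the latter. Serpinh1 also passed it with the replicate letter as a block in the fit. Within each letter, Serpinh1 was higher in the knockout library than in the WT library. The summed Col4a1 and Col4a2 level per length was 0.405, 0.458 and 0.432 times that of Serpinh1 in WT, and 1.18, 1.12 and 1.34 times in the knockout.

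**Figure D3:**
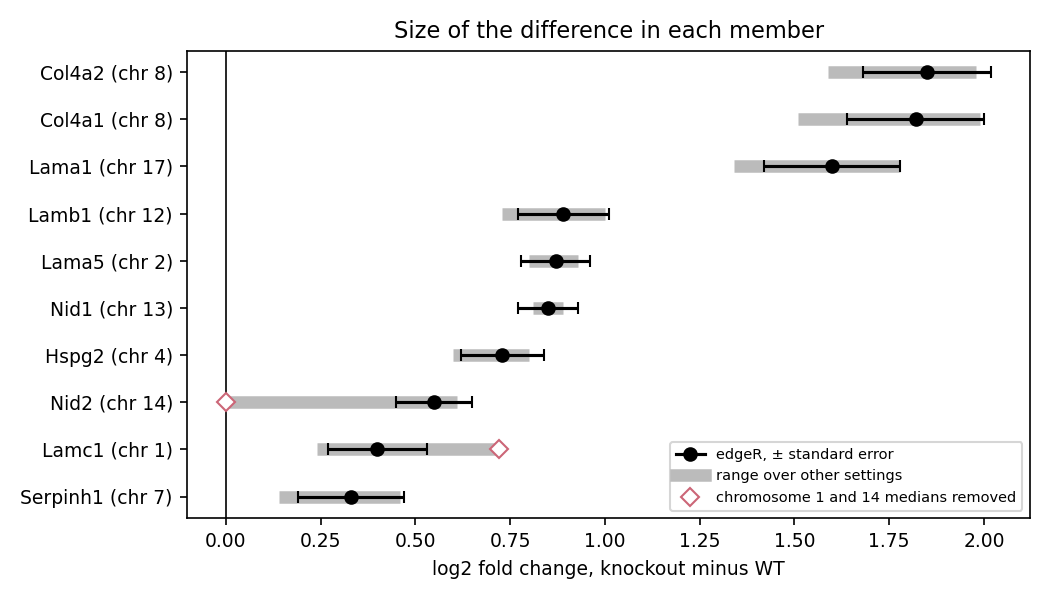
Log2 fold change of each gene, knockout minus WT, from edgeR with its standard error (black) and the range over 17 other settings (grey), with chromosome numbers on the axis. Open diamonds give Lamc1 (0.72) and Nid2 (0.00) after the medians of chromosomes 1 and 14 were removed.

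Ordered by level per length in WT, the genes ran from Lamc1 (89.3 ± 9.68 RPKM, SD, n = 3) and Serpinh1 (82.4 ± 10.3) through Nid2 (56.7 ± 5.71), Hspg2 (42.1 ± 3.64), Lamb1 (33.5 ± 2.43), Lama5 (22.5 ± 0.783), Col4a1 (22.2 ± 2.89), Nid1 (21.4 ± 1.09) and Lama1 (16 ± 2.65) to Col4a2 (13.4 ± 2.39). The libraries of Lamc1 and Serpinh1 overlapped, as did those of Lama5 with Col4a1, Col4a1 with Nid1, and Lama1 with Col4a2, while the other 5 neighbouring pairs were apart. In the knockout Col4a1 had rank 4 at 78.5 ± 27.0 RPKM and Nid1 last at 38.5 ± 1.83 RPKM, and each neighbouring pair overlapped.

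**Figure D4:**
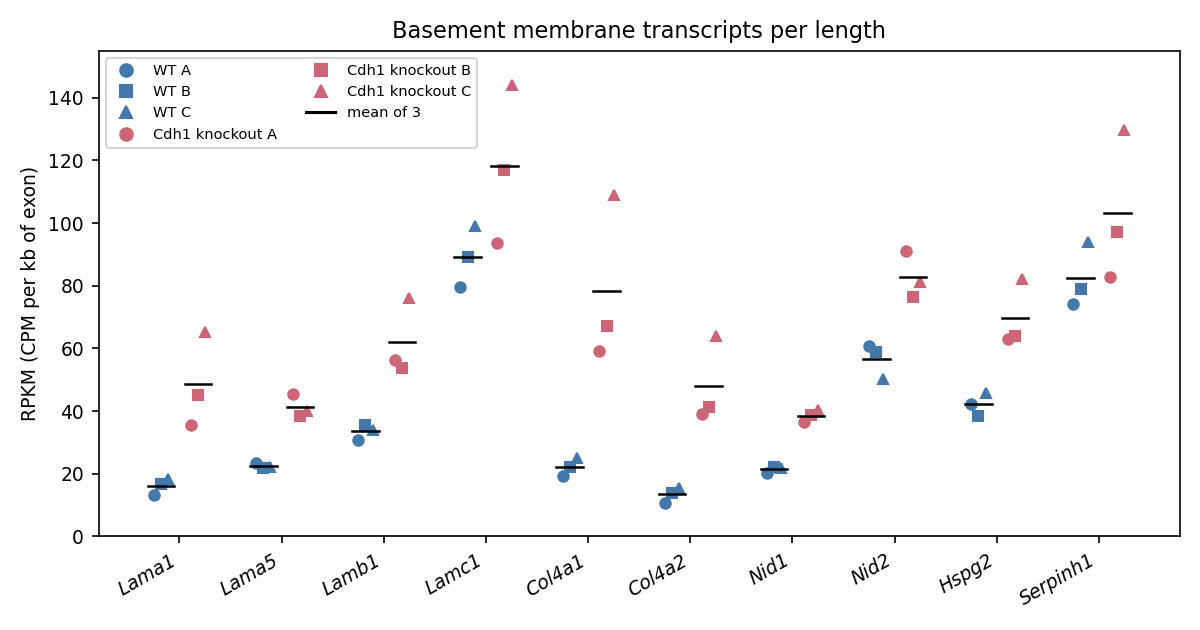
Level of each gene per length, in RPKM (CPM per kilobase of exon), in 3 WT and 3 Cdh1 knockout libraries, with means of 3 as bars. Lamc1 and Serpinh1 are the highest in both genotypes, and Col4a1 moves from 22.2 to 78.5 RPKM.

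Libraries of a genotype differed in the same direction for many of the genes. Knockout C was the highest knockout library in 8 of 10 genes, and knockout A the lowest in 7, where 31.2% and 37.2% of all tested genes did so. Relative to the WT mean, Col4a1 stood at 2.66 in knockout A, 3.02 in B and 4.92 in C, and Lama1 at 2.22, 2.81 and 4.07. Lama5 and Nid2 were the exceptions, with knockout A the highest (2.01 and 1.61). In WT, library A was the lowest in 7 genes and library C the highest in 6. Each of the 8 called genes also passed the threshold in all 6 fits that left out a library. The choice of the genes used the same values, so this is a description only.

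Markers of extraembryonic endoderm, a lineage that secretes much basement membrane, moved with these genes. Of 16 listed markers 13 could be tested. In edgeR 11 of them were called higher in the knockout (7.60% of all tested genes), Hnf4a (1.03) and Lrp2 (-0.31) were not called, and the median log2 fold change was 1.49. The number called higher was also 11 without both A libraries. Among called genes averaging 20 counts or more, the largest changes were those of Sox7 (2.18, on chromosome 14, and 1.64 with the chromosome medians removed), Sox17 (2.15, adjusted p 0.000238 in edgeR, on chromosome 1), the follistatin gene Fst (1.95) and Cubn (1.77), which encodes an endocytic receptor. The transcription factor genes Gata4, Gata6, Sox7 and Sox17 summed to 16.1, 16.4 and 27.2 CPM in WT and to 53.3, 60.7 and 89.5 CPM in the knockout. Gata4 and Sox7 lie on chromosome 14, and Gata6 and Sox17 alone summed to 4.28, 6.62 and 8.30 CPM in WT and to 17.7, 18.7 and 25.4 CPM in the knockout. Knockout C was the highest knockout library for 11 of the 13 markers and knockout A the lowest for 10, beside the shares of 31.2% and 37.2% over all tested genes. The whole list summed to 995 to 1110.4 CPM over WT libraries and 1452 to 1728 CPM over knockout libraries, mostly from the apolipoprotein gene Apoe (797 and 1163 CPM on average), and without Apoe to 197 to 278 CPM and 234 to 550.4 CPM, which overlap. The visceral endoderm marker Afp and the parietal endoderm marker Thbd had at most 6 counts in a library, and Ttr was counted mainly in WT A and knockout A, so these 3 genes did not pass the filter. In bulk RNA, more cells of a type and more RNA per cell cannot be told apart, and the part of endoderm-like cells in the basement membrane values was not tested.

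Fibroblasts also make matrix and can accompany stem cell cultures, so their markers were listed too, and their part in these values was not tested. Of 12 listed fibroblast markers 7 could be tested, with 1 higher (Fbn1, log2 fold change 1.25, adjusted p 8.1e-05 in edgeR) and 1 lower (Col1a1, -1.48, adjusted p 0.000912). The shares over all tested genes were 7.60% higher and 5.71% lower. The summed level of the 12 markers was 63.8 to 82.5 CPM over WT libraries and 71.1 to 93.1 CPM over knockout libraries, and S100a4 had 0 counts in every library. WT A and knockout A stood apart: Col3a1 had 5.13 CPM in WT A against 0.606 and 1.0 CPM in the other WT libraries, and 2.32 CPM in knockout A against 0.0874 and 0.101 CPM. Col1a2, Dcn and Postn were likewise highest in these libraries within each genotype. Among the 10 basement membrane genes, Col4a1, Col4a2, Lama1, Lamc1, Nid1 and Serpinh1 were lowest in both, and Lama5 and Nid2 were highest in both. Lamb1 was lowest only in WT A, and Hspg2 only in knockout A. What these orders mean for the basement membrane values was not tested. Thy1, the most abundant of the fibroblast markers per length, averaged 8.2 and 7.31 CPM (log2 fold change -0.17, adjusted p 0.656 in edgeR).

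The remaining basement membrane genes were listed by function and not by how they moved, but with earlier results of these data known. Of 7 other laminin chains, 1 was called higher and 2 lower, beside shares of 7.60% and 5.71% over all tested genes. Their median log2 fold change was 0.01. The beta chain gene Lamb2 rose from 64.6 ± 5.79 to 101 ± 3.56 CPM (log2 fold change 0.65, adjusted p 0.000320 in edgeR, n = 3 each). Lamb3 and Lama3, which encode chains of the laminin of skin and other stratified epithelia, fell by 1.07 and by 0.57 on the log2 scale (adjusted p 0.0274 and 0.0368 in edgeR). The calls of Lamb3 and Lama3 were both lost without WT A (adjusted p 0.0668 and 0.218), WT C (0.153 and 0.0613) or knockout B (0.0899 and 0.159). Lama3 also lost its call without WT B (0.0523) or knockout C (0.105). Lamb3 lies on chromosome 1 and was not called after the chromosome medians were removed (-0.76, adjusted p 0.126).

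Most of the other collagens did not follow Col4a1 and Col4a2. Of 6 tested genes in this list 0 were called higher (0 at an unadjusted p under 0.05 and 0 in DESeq2 or limma-voom) and 3 lower. Over all tested genes 7.60% were called higher and 5.71% lower. The list's median log2 fold change was -0.98, or -0.85 with the genes at the detection limit set to their bounds. Col4a5, on the X chromosome, fell from 3.09 ± 0.512 to 1.0 ± 0.463 CPM (log2 fold change -1.63, adjusted p 0.0103 in edgeR, n = 3 each). Its adjusted p was 0.0501 without WT A, 0.0596 without WT B and 0.0577 without knockout B. The other called genes, Col4a4 and Col4a6, were named after their values were seen. Neither had more than 6 counts in a knockout library, and they were at least 3.54-fold and 2.57-fold lower, with the limit set at 6 counts per library. Col4a4 averaged 1.06 CPM and Col4a6 0.769 CPM in WT. Col4a4 lies on chromosome 1 and was not called with the chromosome medians removed (-1.85, adjusted p 0.0552 in edgeR). Col18a1, the most abundant of the list, averaged 249 ± 10.7 CPM in WT libraries and 214 ± 18.4 CPM in knockout libraries (adjusted p 0.120 in edgeR, n = 3 each).

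**Figure D5:**
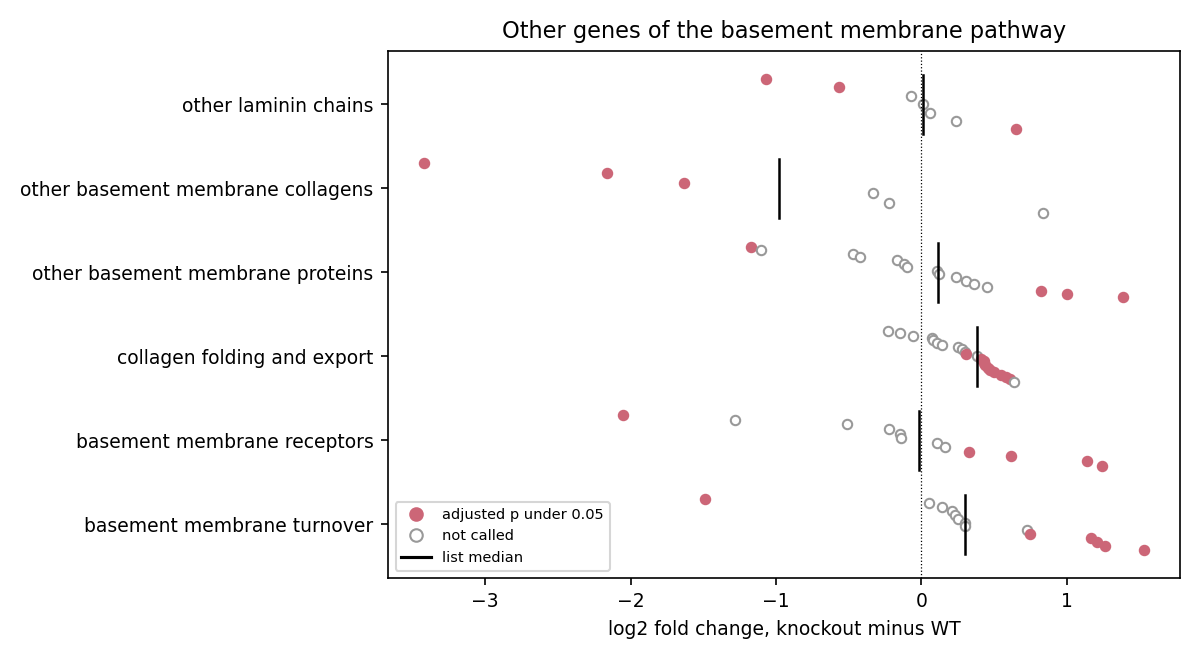
Log2 fold change (knockout minus WT) of each tested gene in 6 lists of other basement membrane genes. Filled points passed an adjusted p of 0.05 and vertical bars are list medians. In the folding and export list 11 genes were called, all higher, and in the collagen list 3, all lower.

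Of 16 tested genes of other basement membrane proteins, 3 were called higher and 1 lower, beside shares of 7.60% and 5.71% over all tested genes. Sparc, which encodes a collagen-binding protein, rose from 204 ± 17.5 to 409 ± 131 CPM (log2 fold change 1.0, adjusted p 0.000894 in edgeR, n = 3 each) and was also highest in knockout C. Its 6 values, 186, 206 and 221 CPM over WT libraries and 297, 376 and 553 CPM over knockout libraries, did not overlap. Egflam (1.39), Ntn1 (0.82) and Hmcn1 (-1.17, on chromosome 1) were called with adjusted p of 0.0306, 0.0200 and 0.0235 in edgeR. Egflam averaged only 0.897 CPM in WT. In Ntn1 the genotypes overlapped, with knockout A at 23.9 CPM and WT libraries at 15.6 to 25.7 CPM. Egflam and Ntn1 were not called without WT B, WT C, knockout B or knockout C (adjusted p 0.0526 to 0.184), and Egflam also not without WT A (0.0636). Hmcn1 was not called without WT A, WT B or knockout B (adjusted p 0.0643 to 0.132) or after the chromosome medians were removed (0.103).

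Genes for collagen folding and export differed by small amounts. Of 23 tested genes, 11 were called higher (7.60% of all tested genes) and 0 lower (5.71% of all tested genes; 0 at an unadjusted p under 0.05 and 0 in DESeq2 or limma-voom), with a median log2 fold change of 0.38. The list's values ran from -0.23 to 0.64. Fkbp10, a prolyl isomerase that assists collagen folding, rose from 24.9 ± 2.05 to 38.0 ± 1.01 CPM (log2 fold change 0.61, adjusted p 0.00188 in edgeR, n = 3 each). Genes on the opposite strand cover 7.47% of its exon bases. P4ha2, a catalytic subunit of collagen prolyl 4-hydroxylase, rose from 50 ± 1.88 to 70.9 ± 8.40 CPM (log2 fold change 0.50, adjusted p 0.00442 in edgeR, n = 3 each). Crtap and P3h4, which act in collagen prolyl and lysyl hydroxylation complexes, had log2 fold changes of 0.58 and 0.55 (adjusted p 0.0191 and 0.0142 in edgeR). Both were not called without WT A, WT B or knockout B (adjusted p 0.0508 to 0.112), and Crtap also not without knockout C (0.0543). Within 1 Mb of Crtap, 8 of the 22 tested genes were called higher too, with a median of 0.27 over the 22. The count of called genes in this list was 5 without WT A, 7 without WT B and 7 without knockout C. Hsp90b1, a chaperone gene and the most abundant per length, missed the threshold in edgeR (0.30, adjusted p 0.106) and passed it without knockout B (0.43, adjusted p 0.0198).

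Of 12 tested receptors for basement membrane proteins, 4 were called higher and 1 lower, beside shares of 7.60% and 5.71% over all tested genes. The number called higher was 3 without WT A, WT B or knockout C. The list's median log2 fold change was -0.01. Itgb4 and Itga6, which form the laminin-binding integrin of hemidesmosomes, rose by 1.24 and 0.62 on the log2 scale (adjusted p 2.4e-05 and 0.00131 in edgeR). Itgb4 went from 17.5 ± 2.66 to 41.4 ± 3.05 CPM and Itga6 from 183 ± 6.65 to 279.7 ± 44.4 CPM. Bcam, a receptor for the laminin alpha chain of Lama5, rose by 1.14 (adjusted p 7.5e-05 in edgeR), from 92.1 ± 17.8 to 204 ± 36.0 CPM. The fourth was Dag1, named after its values were seen, which encodes dystroglycan (log2 fold change 0.33, adjusted p 0.0159 in edgeR). Ddr2, a collagen receptor gene on chromosome 1, fell by 2.05 on the log2 scale (adjusted p 0.00383 in edgeR), and the value of Itgb1, the most abundant per length, was 0.11 (adjusted p 0.446). The integrin genes Itga1, Itga7 and Itga3 had log2 fold changes of -1.28, -0.51 and -0.15 and were not called (adjusted p 0.108, 0.181 and 0.285 in edgeR).

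Among 14 genes for basement membrane turnover, 5 were called higher and 1 lower, beside shares of 7.60% and 5.71% over all tested genes. Each fit without a library gave the same counts for this list. Mmp14, a membrane-bound matrix metalloproteinase gene on chromosome 14, rose from 26.5 ± 1.94 to 76.6 ± 11.5 CPM (log2 fold change 1.53, adjusted p 2.7e-06 in edgeR, n = 3 each), and its value was 0.99 with the chromosome medians removed. Mmp9, the gene of a gelatinase that cleaves collagen IV, fell from 19.6 ± 2.74 to 6.96 ± 1.76 CPM (log2 fold change -1.49, adjusted p 0.000104 in edgeR, n = 3 each). The metalloproteinase inhibitor gene Timp1, the most abundant per length in this list, rose from 22.5 ± 0.379 to 50.7 ± 4.84 CPM (log2 fold change 1.17, adjusted p 8.7e-06 in edgeR, n = 3 each). Timp1 lies on the X chromosome, and 16 of the 21 tested genes within 1 Mb of it were called higher too, with a median of 0.93 over the 21. Hpse, which encodes the heparan sulfate cleaving enzyme heparanase, and the serine protease gene Htra1 rose by 1.26 and 1.21 (adjusted p 0.00230 and 0.00145 in edgeR).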

How the data were processed

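RNA from 3 WT and 3 Cdh1 knockout samples of V6.5 cells was sequenced. The authors deposited raw counts per gene, with exon coordinates and exon length, which are not normalized. The submitters' processing notes name cutadapt 2.10, STAR 2.7.5b, featureCounts 2.0.1 and GRCm38, and the strand setting is not given in the sources used here. Of 55401 genes 55141 received a symbol by Ensembl identifier. Between 78.1% and 83.1% of counts from 1 to 10 were even, a pattern that paired mates counted singly would give, so the detection limit was set at 6 counts per library (0.262 to 0.332 CPM). Limits cover counting error only.

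The tests used edgeR 4.0.16 under R 4.3.3. The function filterByExpr (smallest count 10, smallest total 15) kept 17325 genes, TMM scaled the libraries, and glmQLFit and glmQLFTest tested genotype with Benjamini-Hochberg adjustment over all tested genes. The threshold for a call was an adjusted p of 0.05. Standard errors came from the F statistic. RPKM is CPM divided by the deposited exon length in kilobases. The procedure was tested on simulated data. Alternatives were RLE, upper quartile and total scaling, other filters, DESeq2 1.42.0, limma-voom (limma 3.58.1), counts divided by 2, subtraction, per library, of the median shift of chromosomes 1 and 14 (from genes averaging 100 counts or more), the replicate letter as a block, leaving out each library, and, added after seeing the data, leaving out both A libraries.

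The genes and lists were chosen with earlier results of these data known. Named were the 10 genes, Cdh1, and in each list up to 4 called genes with the largest changes and a mean count of 20 or more, with the most abundant gene per length. Ttr, Col3a1, Col1a2, Dcn, Postn, Hnf4a, Lrp2, Ddx3y, Eif2s3y, Uty, Itga1, Itga3 and Itga7 were named after their values were seen. Start windows are RefSeq's.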

Additional observations from a re-analysis of the deposited data

How the results depend on the processing

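The log2 fold changes of the 10 genes lay at or above 0.00 under all 17 alternatives. Of these values 160 kept their side of the threshold, 9 passed it where the reported fit did not (Lamc1 6 times, Serpinh1 3 times), and 1 lost it, Nid2 with the chromosome medians removed. The number of the 10 genes called was 8, 9 or 10 in every alternative, 9 in DESeq2 and 10 without the filter on low counts. The choice of the 10 genes used this contrast, so these counts are descriptions and not support. Leaving out each library gave 1374 (without WT A) to 2784 (without knockout A) called genes overall against 2307, with 1470 without WT B. It gave 1 to 3 called other laminin chains, 1 to 3 other collagens, 1 to 6 other basement membrane proteins, and 5 to 11 folding and export genes. The other collagens had 1 called gene with a smallest count of 50 and 1 with counts divided by 2. Col4a4 and Col4a6 had at most 28 and 20 counts in a library, too few for the filter under either setting. The order of levels in WT depends on length: by CPM, without length, Hspg2 has rank 2 and Serpinh1 rank 5. Deviations of same-letter libraries correlated at 0.165 (A), -0.149 (B) and 0.396 (C). A and C were positive and B was not, while WT A and knockout A shared counts of Ttr that the other libraries nearly lacked. Whether the letters are pairs is thus not settled, and the reported fit does not use them. WT A, WT C and knockout C correlated best with their own letter, and the other 3 libraries did not. With the replicate block, 2686 genes and all 10 basement membrane genes were called. Genes at about 1 CPM, such as Col4a4 and Col4a6, are limited by depth.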
